A study of Mus musculus with 61 samples.

Results

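Voltage-gated calcium and sodium channels were followed as a gene family in nuclei of mouse striatal projection neurons. The family was taken by symbol: protein-coding genes for the pore, alpha2delta, beta and gamma subunits of calcium channels and for the alpha and beta subunits of sodium channels. It came to 40 genes among the 55401 gene identifiers that were counted. All 40 passed the filter on low counts in every comparison.

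The tissue was the nucleus accumbens of male mice that carried the Cre-dependent allele LSL-eGFP::L10a, which tags the ribosomal protein L10a with green fluorescence, together with either D1-Cre or D2-Cre. These drivers follow the genes for dopamine receptors D1 and D2, and green nuclei were isolated by sorting, so the sort rests on the driver and no further gate is given. Saline (S) or morphine (M) was given daily for 15 days, the mice then spent 30 days in the home cage, and they were killed 1 h after a challenge with saline or morphine. The first letter of a group is the daily treatment and the second the challenge: SS never had morphine, SM had it only at the challenge, MS only in the daily phase, and MM in both. Every control therefore carried the transgenes and the daily injections. The D1 libraries were 8 SS, 8 SM, 9 MS and 7 MM, and the D2 libraries 7 SS, 7 SM, 8 MS and 7 MM, 61 in all. Doses of 20 and 10 mg/kg are listed without being assigned to mice. Whether each library came from 1 mouse or from pooled mice is not stated, so the p-values measure the spread between libraries, which may be partly technical.

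A voltage-gated channel opens when the membrane depolarises. Sodium channels carry the upstroke of the action potential through an alpha subunit, the pore, and beta subunits adjust its gating and its place in the membrane. Calcium channels turn depolarisation into calcium entry: the Cav1 (L-type) pores couple activity to transcription, the Cav2 pores trigger transmitter release and the Cav3 (T-type) pores open near the resting potential. Their beta and alpha2delta subunits bring the pore to the membrane, while most gamma subunits in brain act as auxiliary proteins of AMPA receptors. Projection neurons of the striatum rest at a hyperpolarised potential, and these channels shape when they fire.

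Totals ran from 11518606 to 26108954 counts per library, with a median of 17924400. Counts also fell on 1420 olfactory and vomeronasal receptor genes, which striatal neurons are not known to transcribe, and their count density (CPM, counts scaled to a common total, per kilobase of gene span) served as the background of each library. Spread over all genes, that density would hold 7.44% of the counts in D1 SS replicate 1 and 32.9% to 86.0% in the other libraries. D1 SS replicate 1 stood apart in this and in its TMM scaling factor, 0.388 against 0.811 for the next lowest library. Its level of the 7 striatal projection neuron markers was 4221 CPM summed, against 1029 to 3965 elsewhere, while the 8 markers of cortical glutamatergic neurons came to 314 CPM there and 103 to 254.5 elsewhere. In the mean of the libraries all 7 striatal markers reached 2 times background. So did 3 of 8 markers of cortical glutamatergic neurons, 2 of 8 of astrocytes, 2 of 9 of the oligodendrocyte lineage and 2 of 9 of striatal interneurons, but 0 of 8 microglial and 0 of 8 endothelial and mural markers. Drd1 had a median of 57.7 unscaled CPM in D1 and 11.1 in D2 libraries, and Drd2 78.1 in D1 and 817 in D2. No background was subtracted from these values and they are not scaled by gene length, so the 2 genes cannot be compared with each other. Whether D1 libraries held D2 nuclei, or D2 libraries D1 nuclei, cannot be told from them.

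Because the counts cover the whole gene span, introns included, a level is given below as times background: the count density of a gene over the receptor density of the same library. It is a level per length and does not depend on the scaling between libraries. In the mean of the 61 libraries 28 of the 40 channel genes stood at 2 times background or more. That was 70% of the family, against 32.2% of all genes tested, which unlike the family were not limited to protein-coding genes. Without D1 SS replicate 1 the number of channel genes was 24, since Cacna1d, Cacna1g, Cacng5 and Scn1a then lay under the line, and in that library alone it was 34. Of the genes near the line, Cacng5 lay over it at 2.08 and Cacng1 under it at 1.70. In these bulk nuclei, fewer cells with a transcript and less of it in each cell cannot be told apart.

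Promoter sequences were set beside these levels. RefSeq windows (GRCm38.p6), running from 250 bases before to 50 after a start site, were found for 30 members. At least 20 CG dinucleotides in the window with most of them occurred in 13 of 21 members at 2 times background or more, in 1 of 9 members under it, and in 28.8% of all 27025 genes with a window. As examples, 240 bases upstream of a gene above background and of one at background are printed on the minus strand, with each CG in capitals: Cacna2d3, on chromosome 14 from 29721865 to 29722104 with 29 CG, and Scn7a, on chromosome 2 from 66784915 to 66785154 with 3 CG.
Cacna2d3: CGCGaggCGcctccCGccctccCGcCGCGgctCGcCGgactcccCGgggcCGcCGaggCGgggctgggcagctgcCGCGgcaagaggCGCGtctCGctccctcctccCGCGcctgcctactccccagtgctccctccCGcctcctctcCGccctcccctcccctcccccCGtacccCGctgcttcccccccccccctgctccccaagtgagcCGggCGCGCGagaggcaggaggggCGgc
Scn7a: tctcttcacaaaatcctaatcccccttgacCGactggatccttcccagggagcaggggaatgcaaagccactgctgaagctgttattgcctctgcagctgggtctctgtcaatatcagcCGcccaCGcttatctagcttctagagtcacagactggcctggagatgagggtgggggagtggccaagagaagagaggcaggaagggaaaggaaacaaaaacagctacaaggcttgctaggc
The search for CG was on 1 strand because the pair reads the same on both. The counts describe these windows only.

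**Figure D1:**
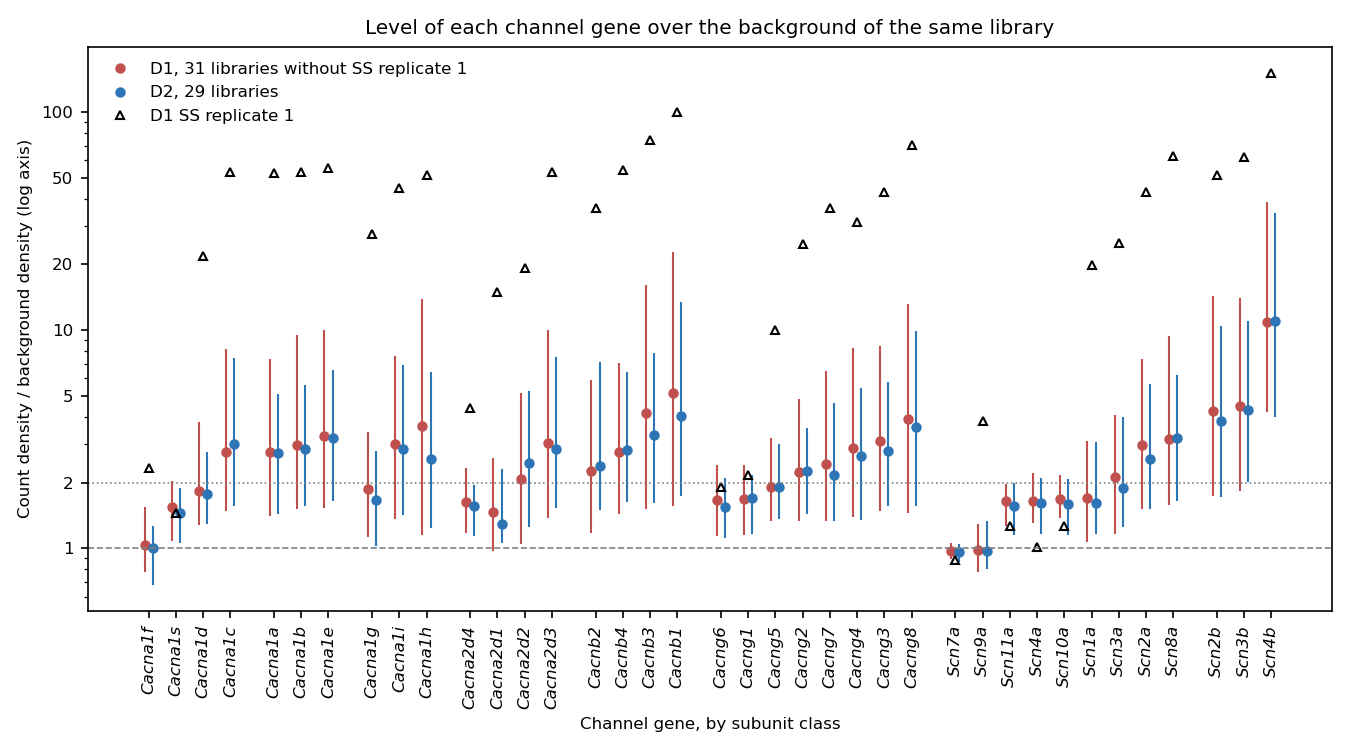
Count density of the channel genes (2 of the 40 are not drawn) divided by the background density of the same library, on a log axis, with genes grouped by subunit class. Points are medians and lines the range over 31 D1 libraries and 29 D2 libraries, triangles are D1 SS replicate 1, and the dashed and dotted lines mark 1 and 2 times background; Scn4b is highest and Scn7a stays near 1.

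Sodium channel beta subunits held the highest level of the family. Scn4b, which encodes the beta subunit known for resurgent sodium current (chromosome 9, 45138395 to 45154152, mm10), stood at 15.4 times background in the mean of all libraries, with a lowest value of 4.02, a median of 11.0 and a highest of 152. It lay above every other sodium beta gene in 61 of 61 libraries, and also above Cacnb1, the next gene in the family's order, in 61 of 61. Scn3b and Scn2b followed at 5.99 and 5.54. Scn2b lies wholly within a gene on the opposite strand, so with the strand setting not given its counts are uncertain. Scn4b was the only member that kept its place above its neighbour in every library: every other neighbouring pair in the order of mean levels changed places in at least 1 library.

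Among the sodium channel pores, 4 of 10 reached 2 times background. Scn8a (Nav1.6), the main pore of nodes and of the axon initial segment, stood at 4.44 in the mean, with a range from 1.58 to 62.8 and a median of 3.19. Scn2a (Nav1.2) stood at 3.78, with a median of 2.76 and a range from 1.51 to 42.9. Scn8a was above Scn2a in 49 of 61 libraries, and both were above Scn3a and Scn1a in all 61. Pores known from skeletal muscle, sensory neurons and glia lay low: Scn4a, Scn10a, Scn11a and Scn7a had means from 0.967 (Scn7a) to 1.67 (Scn10a). Scn9a, the pore of nociceptors, stood at 1.03, with 42.8% of its span overlapped by other genes.

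The calcium channel pores at 2 times background or more were 8 of 10. Of the L-type genes, Cacna1c (Cav1.2) stood at 4.03 and Cacna1d (Cav1.3) at 2.20, and Cacna1c was the higher in 61 of 61 libraries. Cacna1s, the pore of skeletal muscle, and Cacna1f, that of the retina, stood at 1.52 and 1.05. All 3 Cav2 genes were covered at similar levels: Cacna1e (R-type) at 4.41, Cacna1b (N-type) at 4.15 and Cacna1a (P/Q-type) at 3.76. Of the T-type genes, Cacna1h stood at 4.36, Cacna1i at 3.96 and Cacna1g at 2.23. Levels of a single gene differed widely between libraries: Cacna1h ran from 1.15 to 51.5 and Cacna1c from 1.48 to 52.9, with D1 SS replicate 1 highest in both. Without that library the highest values were 13.9 and 8.22.

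The auxiliary calcium channel subunits divided by class. All 4 beta genes passed 2 times background, led by Cacnb1 at 7.40 and Cacnb3 at 5.21; Cacnb1 exceeded Cacnb3 in 60 of 61 libraries. Of the gamma genes 6 of 8 passed, led by Cacng8 at 5.41 and Cacng3 at 3.82, both of which encode AMPA receptor auxiliary proteins, and 37.7% of the Cacng8 span is shared with other genes. The skeletal muscle gene Cacng1 and its relative Cacng6 stood at 1.70 and 1.66. Of the alpha2delta genes, targets of the gabapentinoid drugs among them, Cacna2d3 stood at 4.22 and Cacna2d2 at 2.71, while Cacna2d1 and Cacna2d4 stood at 1.69 and 1.65.

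To see what each class was made of, 1 was subtracted from the times-background level and each of the 28 genes was expressed as a percent of its class. Scn4b held 53.8 ± 5.0% of the sodium beta class over the 32 D1 libraries (SD) and 55.9 ± 3.49% over the 29 D2 libraries. Its level differed 37.8-fold between the lowest and the highest library, or 9.62-fold without D1 SS replicate 1. A level is divided by the background density of its library, and that divisor cancels in a share. A narrower spread of shares than of levels therefore follows in part from how they were computed. Scn8a held 36.7 ± 3.66% of the sodium pores in D1 and 38.4 ± 3.18% in D2, and Scn2a 33.7 ± 3.08% and 31.1 ± 2.37%. Cacna1b held 15.0 ± 1.17% of the calcium pores in D1 and 15.0 ± 0.983% in D2. Shares that differed by 3 to 5 percentage points between the means were Cacnb3 (28.1 ± 4.07% in D1, 23.6 ± 3.59% in D2), Cacnb2 (13.3 ± 4.14% and 16.9 ± 3.97%) and Cacna1h (16.3 ± 4.34% and 12.7 ± 3.32%), each with ranges that overlapped. Over the 28 shares, 6 were higher and 6 lower in D2 in all 4 treatments. Among these genes Cacna1d, Cacna1g, Cacng5 and Scn1a reached 2 times background only through D1 SS replicate 1, and Scn1a is 1 of the 6 higher. The shares were not redone without them. Cacna2d2, counted as higher, and Cacna2d3, counted as lower, make up 1 class between them, so they are a single difference. No share was tested.

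These shares depend on the level that is subtracted. When it was the median of 6 channel genes known outside the striatum, a choice made after seeing the data, in place of 1, Scn8a held 45.7 ± 10.0% of the sodium pores in D1 (SD, n = 32) and 53.8 ± 16.0% in D2 (n = 29), and Scn2a 39.0 ± 6.77% and 33.3 ± 10.1%. Averaged over the 4 treatments, the difference between D2 and D1 then went from 1.60 to 8.20 points for Scn8a, from -2.53 to -5.62 for Scn2a, from -4.56 to -6.72 for Cacnb3, from -3.71 to -6.70 for Cacna1h and from 2.17 to 3.68 for Scn4b. It turned from positive to negative for Scn1a (0.87 to -0.55), Scn3a (0.059 to -2.04) and Cacna1b (0.068 to -0.59). The turn was the other way for Cacnb1 (-0.24 to 1.15), Cacng3 (-0.0074 to 0.98) and Cacna1a (-0.10 to 0.24). For Cacnb2 the difference stayed near 4, at 3.66 and 3.82. With this subtraction 5 shares were higher and 6 lower in D2 in all 4 treatments. The 6 genes behind it were Cacna1s, Cacng1, Cacng6, Scn4a, Scn10a and Scn11a, with mean levels from 1.52 (Cacna1s) to 1.70 (Cacng1). Cacna1f and Scn7a, also known outside the striatum, were not among them and had means of 1.05 and 0.967. The 6 therefore do not stand for all such genes.

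**Figure D2:**
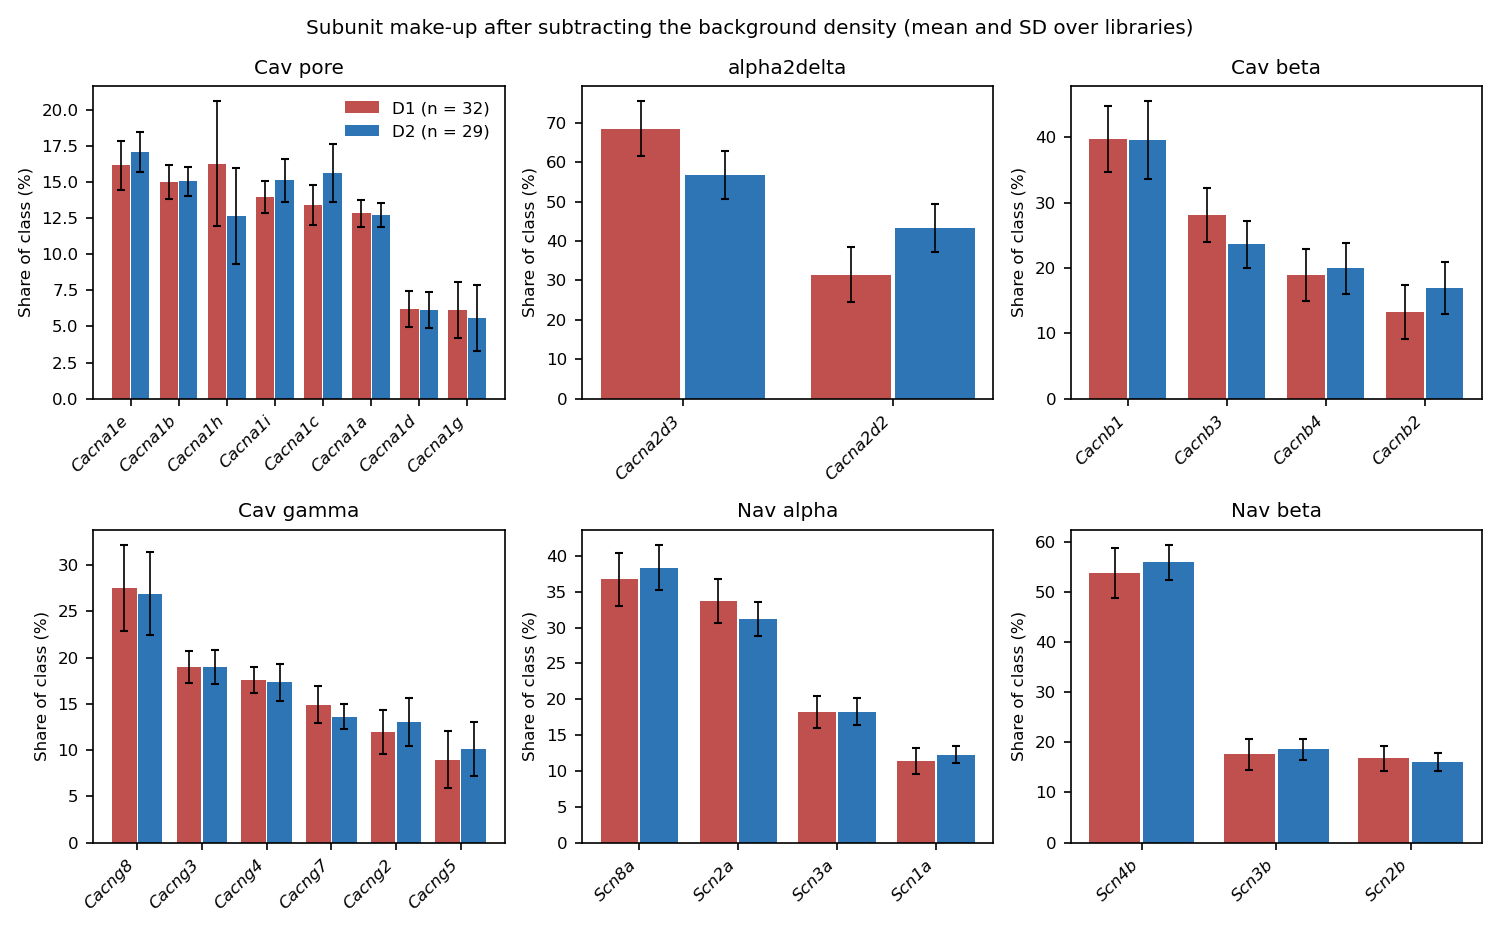
Share of each gene in its subunit class, in percent of the class level above background, for the 28 genes at 2 times background or more, of which 1 is not drawn; bars are means and error bars the SD over 32 D1 and 29 D2 libraries. The D1 and D2 bars lie close in most genes, and the alpha2delta pair differs most, with Cacna2d2 at 31.5% in D1 and 43.2% in D2.

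The widest difference in make-up was in the alpha2delta class, where D2 nuclei held more Cacna2d2 relative to Cacna2d3 than D1 nuclei. Cacna2d2 (chromosome 9, 107399612 to 107529343, mm10) and Cacna2d3 (chromosome 14, 28904943 to 29721864) encode alternative partners of the same pores. The Cacna2d2 share was 31.5 ± 7.0% in D1, from 10.0% to 47.2%, and 43.2 ± 6.11% in D2, from 32.7% to 57.5%. It was singled out after the shares had been seen. The 2 cell types come from separate mouse lines, so the line and the cell type cannot be told apart.

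By treatment the share ran as follows. In SS it had a lowest value of 25.8%, a median of 33.1% and a highest of 44.0% in D1, and 37.2%, 42.6% and 50.8% in D2. In SM the 3 values were 10.0%, 29.5% and 36.9% in D1, and 32.7%, 42.3% and 57.5% in D2. In MS they were 22.3%, 30.4% and 39.4% in D1, and 35.5%, 45.4% and 50.1% in D2. In MM they were 27.1%, 33.2% and 47.2% in D1, and 32.8%, 40.8% and 47.1% in D2. The groups overlapped in every treatment: of the D2 libraries, 3 of 7 in SS, 5 of 7 in SM, 7 of 8 in MS and 0 of 7 in MM lay above all D1 libraries of that treatment.

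The means differed by 10.7 percentage points in SS, 16.8 in SM, 13.9 in MS and 4.79 in MM, higher in D2 each time. Because the gene was chosen for this difference, these values are a description and were not tested. Without D1 SS replicate 1 the SS difference was 9.67 points. The SM difference includes D1 SM replicate 8, with the lowest share, 10.0%. That library had a background of 86.0% of counts and 1 of 40 members at 2 times background or more, so its share rests on little signal. With any 1 library left out, the difference averaged over the treatments lay between 10.9 and 12.1 points. The share was also set out among libraries of like background, in 3 ranges chosen after seeing the data, which left out 6 D1 libraries and 1 D2 library. With a background between 40 and 55% of counts it was 31.3 ± 2.28% over 5 D1 libraries (SD) and 42.4 ± 7.92% over 7 D2 libraries, and the groups overlapped narrowly, with a highest D1 value of 34.0% and a lowest D2 value of 33.9%. Between 55 and 65% it was 31.9 ± 5.21% (n = 10) and 45.7 ± 3.44% (n = 9), without overlap, the highest D1 value being 37.9% and the lowest D2 value 39.6%. Between 65 and 80% it was 33.0 ± 8.37% (n = 11) and 42.6 ± 6.03% (n = 12), and the groups overlapped from 32.7% to 47.2%. With the median of the 6 low channel genes subtracted in place of 1, the differences were 11.4 points in SS, 21.7 in SM, 30.7 in MS and 5.42 in MM, and the SD within D2 SS rose from 4.67 to 18.2 points.

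**Figure D3:**
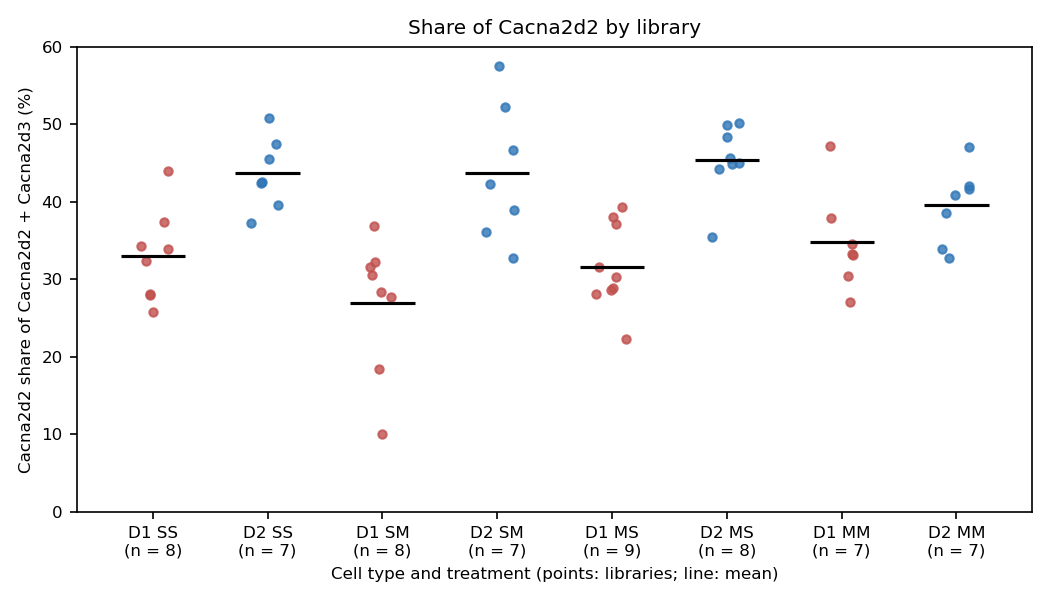
Cacna2d2 as a percent of the level above background of Cacna2d2 and Cacna2d3 together, in each of the 61 libraries by cell type and treatment; points are libraries and lines are group means. D2 libraries (blue) lie mostly above D1 libraries (red), from 32.7% to 57.5% against 10.0% to 47.2%.

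The same 40 genes were then compared between the cell types across all genes with edgeR's quasi-likelihood test and Benjamini-Hochberg adjustment. No channel gene was called at an adjusted p under 0.05 in any treatment: 0 of 40 in SS, SM, MS and MM, and 0 of 40 in the mean over the treatments, where percentages of all genes called were 0.0467, 0.0303, 0.0746, 0.056 and 0.301. At an unadjusted p under 0.05 the members were 30, 0, 1, 1 and 9 of 40, and over all genes the numbers were 11972, 928, 858, 2097 and 5241. In the mean over treatments the members' median was -0.20 on the log2 scale, against 0.01 for all genes, and 12 of 40 were higher in D2. The partner genes described below had a median of -0.21. Of the 12 members under 2 times background 10 were higher in D2, and of the 28 at or above it 2. Cacna2d2, one of those 2, was 0.21 ± 0.11 higher (SE) with an edgeR adjusted p of 0.41.

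The SS comparison leaned on D1 SS replicate 1. The members' median there was -0.63 with all libraries and -0.11 without that one, and 1 of 40 members, in place of 30, then had an unadjusted p under 0.05. DESeq2 called 22 of 40 in SS with all libraries (22.9% of all genes), 21 lower in D2 and Cacng6 higher. In the other treatments the family's median was -0.20 in SM, 0.15 in MS and -0.10 in MM, so the sign of the family's median was not the same in all treatments. DESeq2 called 0 of 40 in SM, MS, MM and the mean over treatments.

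With the background density of each library as a covariate, the family's median in the mean over treatments was 0.01, and 2 members passed (0.59% of all genes were called). Cacna2d2 was 0.38 ± 0.05 higher in D2 (SE, edgeR adjusted p = 2.73e-07). Cacna1c was 0.19 ± 0.05 higher (adjusted p = 0.045), against -0.10 without the covariate. Cacna2d3 did not pass, at 0.02 ± 0.06. In MS alone Cacna2d2 was 0.62 ± 0.09 higher (adjusted p = 2.1e-05), the 1 member called, where 0.222% of all genes were. In SS, SM and MM 0 of 40 passed. The covariate fit was not repeated without D1 SS replicate 1, the library with by far the lowest background. Without that library and without the covariate, Cacna2d2 was 0.29 ± 0.09 higher in the mean over treatments (SE, edgeR adjusted p = 0.301). It was 0.74 ± 0.17 higher in MS (adjusted p = 0.0633). Cacna1c was then 0.08 ± 0.11 higher in the mean over treatments (adjusted p = 0.848).

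**Figure D4:**
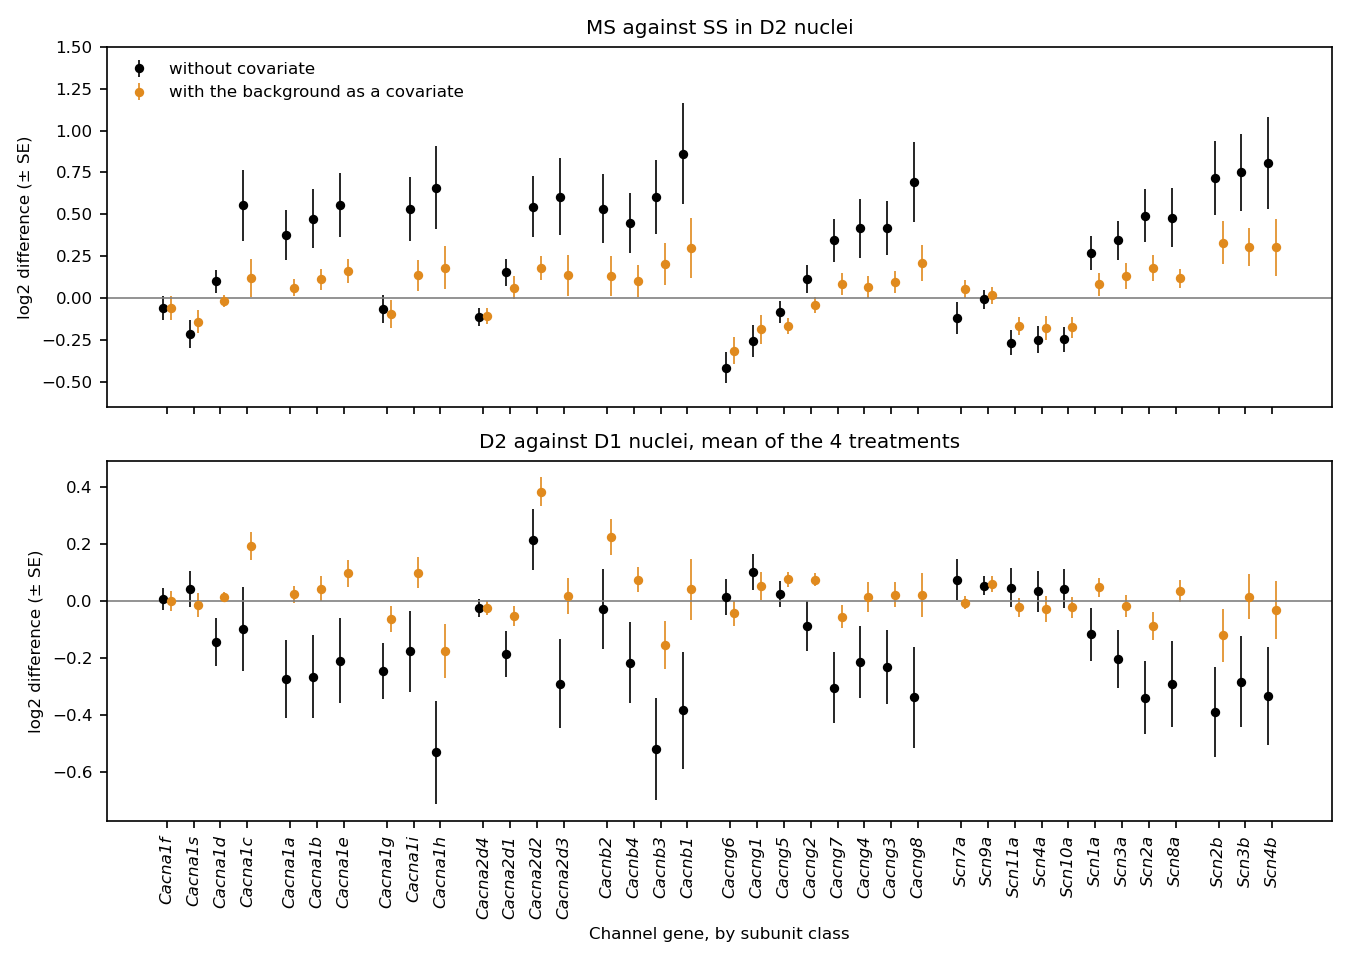
log2 differences with their SE for the channel genes (2 of the 40 are not drawn), by subunit class, from edgeR without (black) and with (orange) the background density as a covariate. In the upper panel, MS against SS in D2 nuclei, most black points lie above 0 and the orange points lie nearer to 0; in the lower panel, D2 against D1, the highest orange point is Cacna2d2 at 0.38.

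Morphine history and challenge were compared within each cell type. In D1 nuclei 0 of 40 members, and 0% of all genes, passed in SM, MS or MM against SS, in MM against MS or SM, and in the interaction of challenge and history. The members at an unadjusted p under 0.05 were 1, 4, 1, 0, 0 and 2 of 40 in that order, and over all genes the numbers were 770, 1101, 790, 940, 550 and 952. DESeq2 called 0 members in each. Within a comparison the differences mostly shared a sign: of the 40 members 10 were higher in SM than in SS, 10 in MS than in SS and 11 in MM than in SS, while 35 were higher in MM than in MS and 36 in MM than in SM. The sign went with the level. Of the 28 members at 2 times background or more 0, 0 and 2 were higher than in SS, and of the 12 others 10, 10 and 9. It was not particular to the family: the partner genes described below had medians of -0.37, -0.38 and -0.16 against SS. Comparisons that share a control group share its libraries. Without D1 SS replicate 1 all 3 comparisons with SS turned, with 33, 25 and 34 of the 40 higher than in SS. The members' median then went from -0.37 to 0.06 in SM, from -0.40 to 0.03 in MS and from -0.19 to 0.25 in MM, and in the interaction from 0.60 to 0.10. DESeq2 with all libraries put 20, 15 and 22 of the 40 higher than in SS. The D1 background was 57.8 ± 24.3% of counts in SS, 60.7 ± 16.3% in SM, 63.1 ± 11.3% in MS and 53.7 ± 9.69% in MM (SD).

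In D2 nuclei the comparison with most members at a low unadjusted p was MS against SS, that is, 30 days after daily morphine without a further dose. Of the 40 members 27 were higher in MS, with a median of 0.40 on the log2 scale against -0.05 for all genes, and 32 of 40 had an unadjusted p under 0.05, as did 13164 of 41125 genes. The direction went with the level. Of the 28 members at 2 times background or more 26 were higher, with a median of 0.51. Of the 12 others 1 was higher, with a median of -0.19. The rise was not particular to the channels, since the partner genes described below had a median of 0.38. None of the 40, and 0% of all genes, passed by edgeR, where the smallest adjusted p was 0.0713 both in the family and over all genes. DESeq2 called 26 of 40 (15.2% of all genes), 22 of them higher (11.8% of all genes) and 4 lower (3.34%). Those 4 were Cacng6, Scn4a, Scn10a and Scn11a, none of which reached 2 times background.

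Single genes show the overlap. Scn4b had a lowest value of 50.5, a median of 55.2 and a highest of 102 TMM-scaled CPM in D2 SS, and 61.5, 97.3 and 215 in D2 MS. Cacnb1 ran from 28.9 through 31.9 to 59.2 CPM in SS and from 34.8 through 67.4 to 115 in MS. Scn8a ran from 184 through 204 to 269 CPM in SS and from 214 through 283 to 441 in MS. In each of the 3 genes the median was higher in MS, and the ranges of the 2 groups overlapped. Scn7a, at background, ran from 41.5 through 52.4 to 55.6 CPM in SS and from 42.0 through 47.6 to 52.5 in MS.

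The edgeR differences were 0.80 ± 0.27 for Scn4b (SE, adjusted p = 0.0716), 0.86 ± 0.30 for Cacnb1 (adjusted p = 0.0727) and 0.48 ± 0.17 for Scn8a (adjusted p = 0.0761). Over the 16 genes named by level, the differences ran from 0.10 (Cacna1d, adjusted p = 0.311) to 0.86 (Cacnb1). Cacna2d2 and Cacna2d3 were 0.55 ± 0.18 and 0.60 ± 0.23 higher (adjusted p = 0.0714 and 0.0824). The background moved with the groups: it was 66.7 ± 6.49% of counts in D2 SS and 56.7 ± 9.45% in D2 MS. With it as a covariate the family's median was 0.09, 14 of 40 members had an unadjusted p under 0.05, and 0 of 40 passed (smallest adjusted p 0.292). The number called also rested on single libraries: it was 28 of 40 without D2 MS replicate 4 (20.8% of all genes), 28 without D2 MS replicate 8 (18.5%), 7 without D2 MS replicate 5 (6.74%) and 0 in the other 12 fits that left out 1 library of these groups.

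The remaining D2 comparisons called 0 of 40 members and 0% of all genes by edgeR, and 0 members by DESeq2. The members at an unadjusted p under 0.05 were 1 in SM against SS, 12 in MM against SS, 0 in MM against MS, 5 in MM against SM and 1 in the interaction, and over all genes the numbers were 1333, 5472, 1548, 3180 and 1464. The difference between the cell types in the response to daily morphine (MS against SS, D2 minus D1) was 0.90 in the members' median, and 0 of 40 members and 0% of all genes passed by edgeR, 29 members and 10571 genes having an unadjusted p under 0.05. That median was 0.40 once D1 SS replicate 1 was left out, and 0.11 with all libraries and the background covariate. The partner genes described below had a median of 0.85 with all libraries and no covariate. DESeq2 with all libraries called 23 of 40 in this contrast (12.1% of all genes), and it was not repeated without D1 SS replicate 1. The same contrast for MM against MS gave a median of -0.37 and 0 of 40 by edgeR and by DESeq2, where edgeR called 0% of all genes and 0 members and 1529 genes had an unadjusted p under 0.05.

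**Figure D5:**
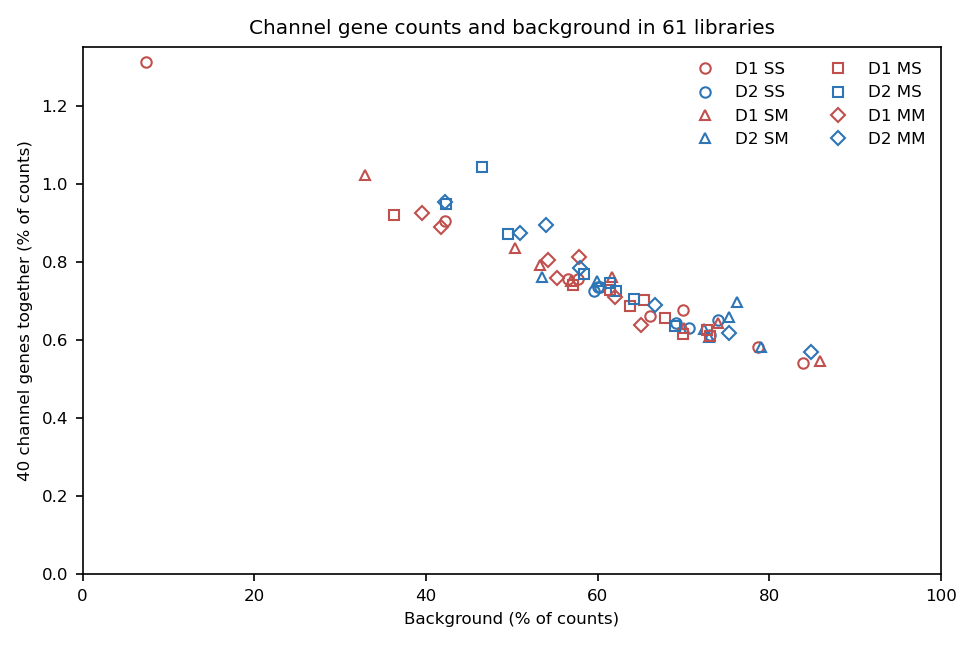
Counts of the 40 channel genes together, in percent of all counts, against the background in percent of counts, for each of the 61 libraries by cell type (colour) and treatment (marker). D1 SS replicate 1 sits at 7.44% background and 1.31% channel counts, and the channel percentage is lower where the background is higher.

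The channel genes took a larger part of the counts where the background was low. Their sum ran from 0.542% to 1.31% of counts in D1 SS, from 0.614% to 0.736% in D2 SS and from 0.638% to 1.04% in D2 MS. Both quantities are parts of the same total.

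Partners of the channels were read beside them: calcium sensors, CaM kinases, calcineurin, intracellular calcium release channels, calcium pumps and exchangers, store-operated channels, presynaptic scaffolds and axon initial segment proteins. Of 60 listed genes 58 were found, and 44 stood at 2 times background or more, among them Hpca (hippocalcin) at 17.0 and Akap5, an anchor of kinases near L-type channels, at 16.4. With edgeR, TMM scaling and all libraries, 0 of 58 were called in any comparison without the covariate or the replicate block. DESeq2 called 41 of 58 for D2 against D1 in SS (22.9% of all genes), 27 for MS against SS in D2 (15.2%) and 29 for its difference between the cell types (12.1%). In edgeR, DESeq2 size factors called 42 in SS (19.2%), the replicate block 33 for MS against SS in D2 (20.9%), and leaving out D2 MS replicate 4, 5 or 8 called 30, 9 and 28 there. With the covariate, 3 passed between D2 and D1 in the mean over treatments: Rimbp2, which links Cav2 channels to release sites, was 0.15 ± 0.03 higher in D2 (SE, adjusted p = 0.0071), Ryr2 (a ryanodine receptor) was 0.10 ± 0.02 higher (adjusted p = 0.0137), and Slc8a3 (a sodium-calcium exchanger) was -0.10 ± 0.02 (adjusted p = 0.00522). In MS alone Rimbp2 was 0.31 ± 0.06 higher (adjusted p = 0.00562).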

How the data were processed

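Per the labels' protocols, RNA of sorted nuclei went into a strand-specific total RNA kit for tiny inputs. Per the submitters' processing notes, the authors used featureCounts, DESeq2 and the build mm10; for versions, aligner, annotation and strandedness of counting, nothing was stated. Raw counts and FPKM were deposited, and only counts were tested. Lengths recovered from the deposited FPKM equalled the whole gene span of GENCODE M21 for 54281 of 54281 identifiers matched with their version (relative tolerance 1e-06); for 2 members, Cacna1a and Cacna1c, they did not, and the recovered length was used. Counts were fitted with edgeR 4.0.16 (TMM, filterByExpr, robust quasi-likelihood) in R 4.3.3, per cell type (41083 genes in D1, 41125 in D2) or jointly (42870), with Benjamini-Hochberg adjustment over all genes. Alternatives were DESeq2 1.42.0 and its size factors, no low-count filter, the background covariate, D1 SS replicate 1 left out and a replicate block; SE is the log2 difference over the root of F. The code was tested on simulated data. All 40 members enter the counts. Named are the 2 with the highest mean level in each of 8 subunit classes and the members called with the background covariate alone. Members called only in other fits are mostly given as a count. Others named were chosen after their values were seen. Members and lists were chosen with earlier results of these data known. The values of some genes are not reported here.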

Additional observations from a re-analysis of the deposited data

Results flagged for a closer look

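Dixon's test for a value apart from its group was run on 144 groups (16 named genes, the background and the Cacna2d2 share, in 8 groups each) and marked 46 values; chance marks about 1 in 20 groups, and the values of 1 library are not independent. D1 SS replicate 1 was high in all 16 genes, in times background: Scn4b 152, Cacnb1 100.1, Cacnb3 74.2, Cacng8 70.5, Scn8a 62.8, Scn3b 62.3, Cacna1e 55.2, Cacna2d3 53.4, Cacna1b 53.3, Cacna1c 52.9, Cacna1h 51.5, Cacna1i 44.7, Cacng3 43.1, Scn2a 42.9, Cacna1d 21.8 and Cacna2d2 19.2. D1 MS replicate 2 was also high in all 16: Scn4b 38.6, Cacnb1 22.7, Cacnb3 16.1, Scn3b 14.1, Cacna1h 13.9, Cacng8 13.0, Scn8a 8.57, Cacna1b 8.50, Cacna1e 8.13, Cacna2d3 7.33, Cacna1i 7.32, Scn2a 6.98, Cacng3 5.89, Cacna1c 5.81, Cacna2d2 3.92 and Cacna1d 3.11. The background of that library, 36.2% of counts, was the lowest of its group. D1 SM replicate 2 was high in 12 genes: Scn3b 14.1, Cacng8 13.2, Cacnb3 10.6, Cacna2d3 10.0, Cacna1e 10.0, Cacna1b 9.50, Scn8a 9.40, Cacng3 8.47, Cacna1c 8.22, Scn2a 7.34, Cacna2d2 5.17 and Cacna1d 3.81. In D2 MS replicate 1 the Cacna2d2 share was low, at 35.5%.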

How the results depend on the processing

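Of the 19 counts of called members, all 0 with edgeR and TMM, most stayed at 0 under each alternative. For MS against SS in D2 the count was 26 with DESeq2, 29 with the replicate block (20.9% of all genes; 23 higher, 6 lower) and 0 to 28 when 1 library was left out. For D2 against D1 in SS it was 26 with DESeq2 size factors (19.2% of all genes) and 22 with DESeq2 (22.9%), and for MS against SS, D2 minus D1, 23 with DESeq2 (12.1%). With the background covariate it was 1 for D2 against D1 in MS (0.222% of all genes) and 2 in the mean over treatments (0.59%). With the replicate block and the covariate together it was 2 in MS (125 of 42870 genes called) and 1 in the mean (149 of 42870). Of same-numbered libraries, 16 of 45 D1 pairs and 17 of 42 D2 pairs correlated over 0.1. Of pairs with different numbers, 129 of 338 in D1 and 106 of 273 in D2 did. Whether a number marks a shared batch or pair cannot be told from such correlations, and the labels do not say. The main fits did not use the numbers. The block alone changed no other count. Between D2 and D1 in the mean over treatments the sign turned with the covariate for Cacna1c (0.19), Cacna1d (0.013), Cacna1e (0.096), Cacna1b (0.042), Cacna1i (0.098), Cacna2d3 (0.017), Cacnb1 (0.041), Cacng8 (0.019), Cacng3 (0.021), Scn8a (0.035) and Scn3b (0.015), with the replicate block and covariate for Cacna1c (0.13), Cacna1d (0.0080), Cacna1e (0.058), Cacna1b (0.024), Cacna1i (0.058), Cacng3 (0.00078) and Scn8a (0.017), and without D1 SS replicate 1 for Cacna1c (0.079). For MS against SS in D2, Cacna1d turned to -0.019 with the covariate. With 6 channel genes as the level subtracted, the difference in the Cacna2d2 share between D2 and D1 moved to 30.7 points in MS, from 13.9, and in SS, SM and MM by less than the spread between libraries; 1 library had no alpha2delta level above it. The differences for Scn8a (8.20), Scn2a (-5.62) and Scn3a (-2.04) moved by more than that spread, and those of 6 other shares by less. The cause of these changes was not tested. Levels near 1 time background leave little to measure, and the high background limits all members.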
